A study of Homo sapiens with 12 samples.

Results

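The 3 libraries described here come from MDA-MB-468 cells that received only the vehicle DMSO, and they are 3 of the 12 libraries in the series. They were chosen by their treatment label alone, and no measured value entered the choice. MDA-MB-468 is an established human breast cancer line that is commonly classed as triple-negative and basal. The libraries are named A, B and C. Cells were held in DMSO from day -5, passaged on day -3 and plated on day -1 at 250000 cells in a 6 cm plate. On day 0 the medium was changed to one with 2% serum, and poly(A) RNA was collected 24 h later. The other 9 libraries received an AKT inhibitor, an EZH2 inhibitor or both, and none of them is used here. Nothing in the labels states whether separate cultures were used, so the spread between them may be technical, and all of it comes from 1 cell line.

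Triple-negative describes breast cancers without oestrogen receptor, progesterone receptor or amplified ERBB2, and basal describes tumours that express genes of the outer, myoepithelial layer of the mammary duct, such as KRT5 and KRT14. The inner, luminal layer expresses KRT8, KRT18, KRT19 and transcription factors such as GATA3 and FOXA1. As background, MDA-MB-468 is known for an amplified EGFR gene and the loss of the tumour suppressors RB1 and SMAD4. None of these DNA states was measured here.

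Levels are given on 2 scales. CPM, the reads of a gene per 1000000 reads in genes, serves to compare 1 gene between libraries. The length-scaled level divides CPM by the exon length of the gene and rescales the result to 1000000 over all genes with a length, and it serves to compare different genes. A gene is called expressed at 1 CPM or more in each of the 3 libraries, silent with no read in any of them, and low otherwise. Values are the mean ± SD of the 3 libraries unless a library is named.

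Reads in genes numbered 28746965 in A, 22682755 in B and 28164669 in C, which puts 3 counts at 0.104, 0.132 and 0.106 CPM. A gene with no read in all 3 libraries was below 0.0377 CPM by the same limit of 3 counts over 79594389 reads, a limit that covers counting error only. Genes held 66.3% ± 1.66 of the counted reads. Another 12% ± 0.5 mapped to more than 1 place and 1.8% ± 0.0275 overlapped more than 1 gene, so genes with close copies or overlapping neighbours are undercounted. Library A stood somewhat apart from B and C. The chi-square per degree of freedom over genes was 5.2 between A and B and 6.76 between A and C, against 2.75 between B and C.

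Of 23228 genes, 12405 (53.4%) were expressed, 5546 (23.9%) were low and 5277 (22.7%) were silent. Among 18725 protein-coding genes, 11662 (62.3%) were expressed and 3094 (16.5%) were silent. The share of members in each class is shown for all lists of genes in the plot of lists by class. Machinery that every dividing cell uses was expressed almost in full, and most members of several families tied to specialised cells were low or silent. All 37 subunit genes of respiratory complex I were expressed, as were 74 of 75 mitochondrial ribosomal protein genes and 37 of 39 proteasome genes. At the other end, 349 of 376 olfactory receptor genes had no read and none was expressed. Other families had reads but few expressed members: 27 of 49 interleukin genes, 6 of 69 protocadherin genes and 4 of 14 MHC class II genes had no read, while 7, 17 and 2 were expressed.

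**Figure D1:**
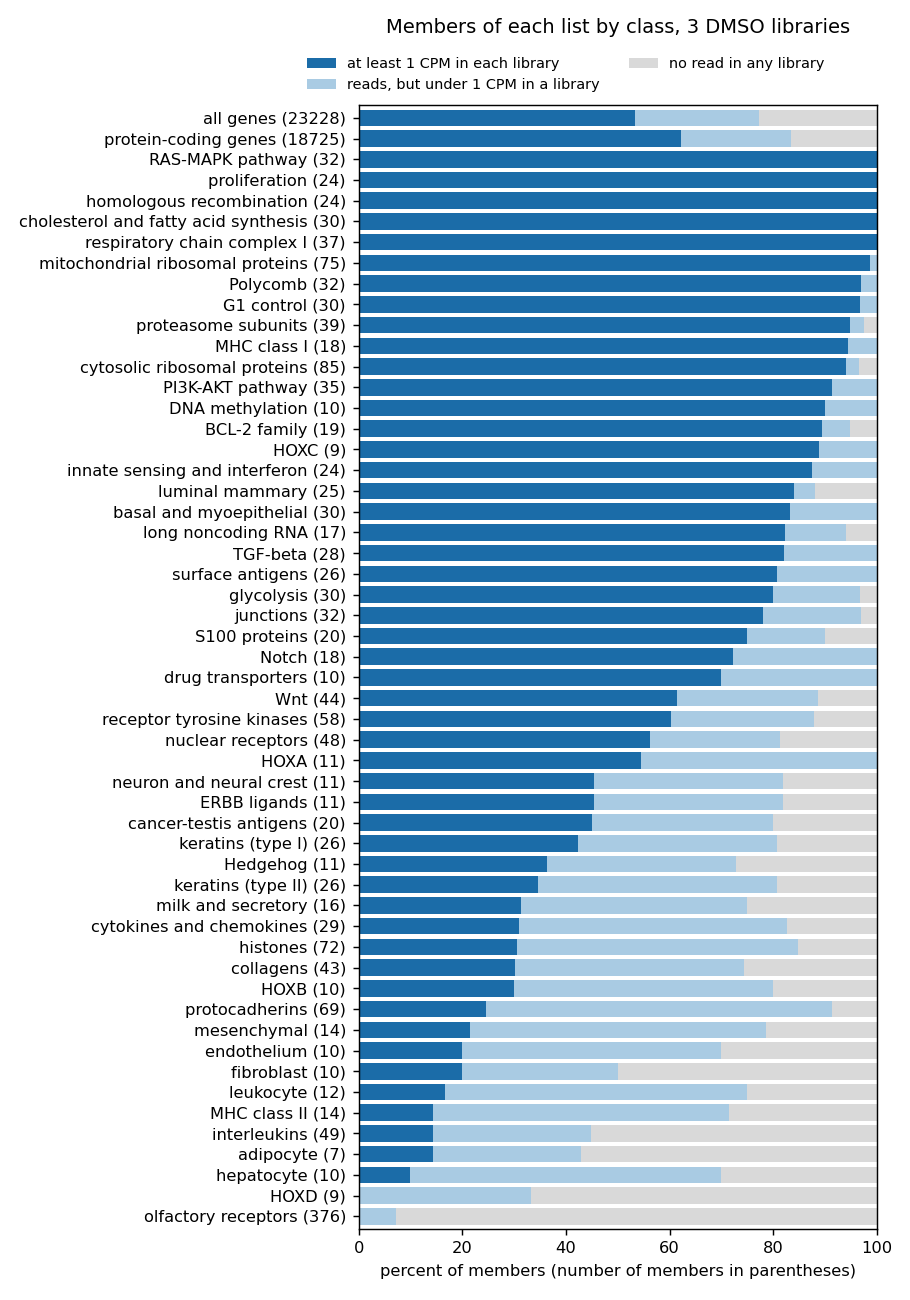
Percent of the members of each list that were expressed (dark), low (pale) or silent (grey) in the 3 DMSO libraries, with the number of members in parentheses. All genes and protein-coding genes stand at the top for reference, at 53.4% and 62.3% expressed. The lists run from complete expression (RAS-MAPK, proliferation, cholesterol and fatty acid synthesis) to none (HOXD, olfactory receptors).

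The most abundant transcripts came from the cytoskeleton, glycolysis, protein folding, iron storage and the ribosome, joined by keratins and by genes that lie beside EGFR. The first gene by CPM was ACTB (beta-actin), with 7519 CPM in A, 8403 in B and 8634 in C. ACTB was lowest in A, and its mean of 8185 ± 588 CPM was 0.819% of the reads in genes. GAPDH followed at 5021 ± 179 CPM and TUBB at 4676 ± 67.6 CPM. SCD, the desaturase that makes monounsaturated fatty acids, was also among the 20 highest at 3329 ± 66.3 CPM.

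On the length-scaled level the order changed, and 9 of the 20 highest genes were shared between the scales. SEC61G, a small subunit of the channel that carries new proteins into the endoplasmic reticulum, came first with 13181 in A, 12710 in B and 13267 in C. ACTB was second at 11097 ± 699 and its 3 values did not overlap those of SEC61G. PTMA, FTH1, TMSB10 and GAPDH came next, at 7479 ± 886, 7194 ± 253, 6192 ± 324 and 5631 ± 145. With exons of all basic transcripts counted as length, SEC61G fell to 7894 and ACTB, at 11280, stood above it. The top 20 held 6 ribosomal protein genes, among them RPS18 at 5191 ± 204 and RPS16 at 4239 ± 179. It also held KRT19 at 4639 ± 90.9, S100A6 at 3997 ± 228 and CHCHD2, a mitochondrial protein gene, at 3346 ± 82.7.

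**Figure D2:**
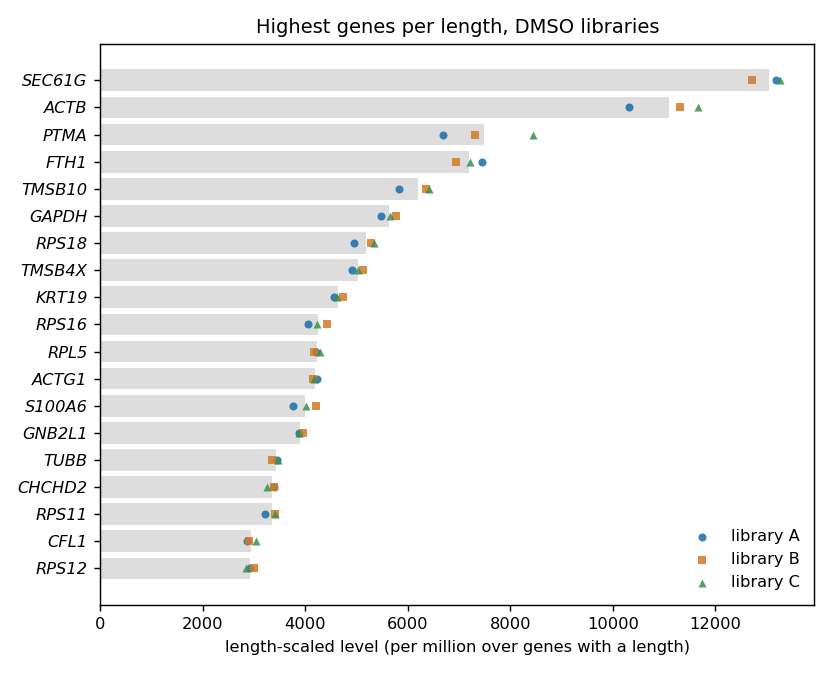
The plot holds 19 of the 20 genes of highest length-scaled level (horizontal axis), with bars for the mean and 1 symbol for each DMSO library. SEC61G stands first at 13053 and the 20th gene, RPS12, at 2921. Library A is the lowest of the 3 for ACTB, PTMA and TMSB10.

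Reads were spread over many genes. The 10 highest genes took 4.28% ± 0.147 of the reads in genes, the 100 highest 16.9% ± 0.312 and the 1000 highest 49.8% ± 0.437. It took 1012 ± 21.7 genes to reach 50% of the reads. On the length-scaled level the 100 highest genes took 25.6% ± 0.456 and 535 ± 18.8 genes reached 50%. The 85 cytosolic ribosomal protein genes together had a length-scaled sum of 101513, and 80 of them were expressed. RPL21 was among those with no read. Ribosomal protein genes have many copies in the genome, and the share of reads lost to copies was not tested.

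Several genes outside the lists stood among the highest and are secreted or linked to epithelial differentiation. They were picked after their values were seen. MGP, a matrix protein, was at 1304 ± 36.1 CPM and AZGP1, a secreted glycoprotein, at 1167 ± 34.4 CPM. CASP14, a caspase of cornifying skin, was at 1534 ± 30.1 CPM. CRABP2, which carries retinoic acid to its receptors, was at 874 ± 62.5 CPM, with library A lowest at 803.

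Epithelial markers of both mammary layers were abundant in the same libraries. Of 25 luminal genes, 21 (84%) were expressed, 1 was low and 3 were silent. Of 30 basal and myoepithelial genes, 25 (83.3%) were expressed, 5 were low and none was silent. The expressed share over protein-coding genes was 62.3%. Median length-scaled levels were 73.6 for the luminal and 64.1 for the basal list, against 3.39 over all genes with a length and 23.1 over expressed genes. Bulk RNA cannot tell a mixture of cells from cells that hold both programmes, nor fewer cells of a type from less RNA per cell.

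Keratins, the filament proteins of epithelia that pair a type I with a type II member, show this overlap. Among 26 type I genes 11 were expressed, with a length-scaled sum of 7785 ± 196, and among 26 type II genes 9 were expressed, with a sum of 5029 ± 141. KRT19 took 59.6% ± 0.338 of the type I sum, KRT18 21.9% ± 0.416 and KRT17 7.28% ± 0.226. The type II sum was shared nearly evenly by KRT8 with 33.6% ± 0.247, KRT5 with 32.2% ± 0.0225 and KRT7 with 28.7% ± 0.167. KRT5, the basal member, was at 1604 CPM in A, 1727 in B and 1667 in C. KRT14, its usual basal partner, was far lower, with a length-scaled level of 315 ± 4.33 against 1617 ± 44.5 for KRT5. With exons of all basic transcripts as length, KRT8 fell to 961 and stood below KRT5 at 1807 and KRT7 at 1613, so the order of these 3 depends on the length used. Closely similar keratins such as KRT6A, KRT6B, KRT14, KRT16 and KRT17 can lose reads to one another.

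Luminal transcription factors were present at far higher levels than the oestrogen and progesterone receptors. GATA3 was at 84.9 CPM in A, 92.4 in B and 98.3 in C. FOXA1 was at 67.6, 70 and 65.4 CPM, and XBP1 and ELF3 were higher, at 343 ± 16.4 and 290 ± 3.95 CPM. ESR1, the oestrogen receptor alpha gene, had 1.74, 2.03 and 1.21 CPM in A, B and C, from 130 reads in all. This passes the limit for an expressed gene but lies at the 40th percentile of length-scaled levels. PGR, TFF1 and TFF3, classical oestrogen-induced genes, had no read.

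On CPM the basal markers were led by KRT5, EGFR, SOX9 and SFN, the epithelial protein stratifin. SOX9, a progenitor transcription factor, was at 438, 442 and 470 CPM, and SFN at 416, 423 and 424 CPM in A, B and C. FOXC1, a transcription factor used as a mark of basal-like tumours, was at 122 ± 3.01 CPM and EN1 at 26.4 ± 2.21 CPM. TP63, the master regulator of basal epithelium, was barely over the limit at 1.46 ± 0.0792 CPM, and SOX10 had 9 reads in all. The contractile genes of mature myoepithelium were low: ACTA2 had 21 reads and CNN1 had 2. Genes of attachment to the basement membrane were higher, with ITGB4 at 187 ± 6.76 and ITGA6 at 172 ± 9.27 CPM.

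**Figure D3:**
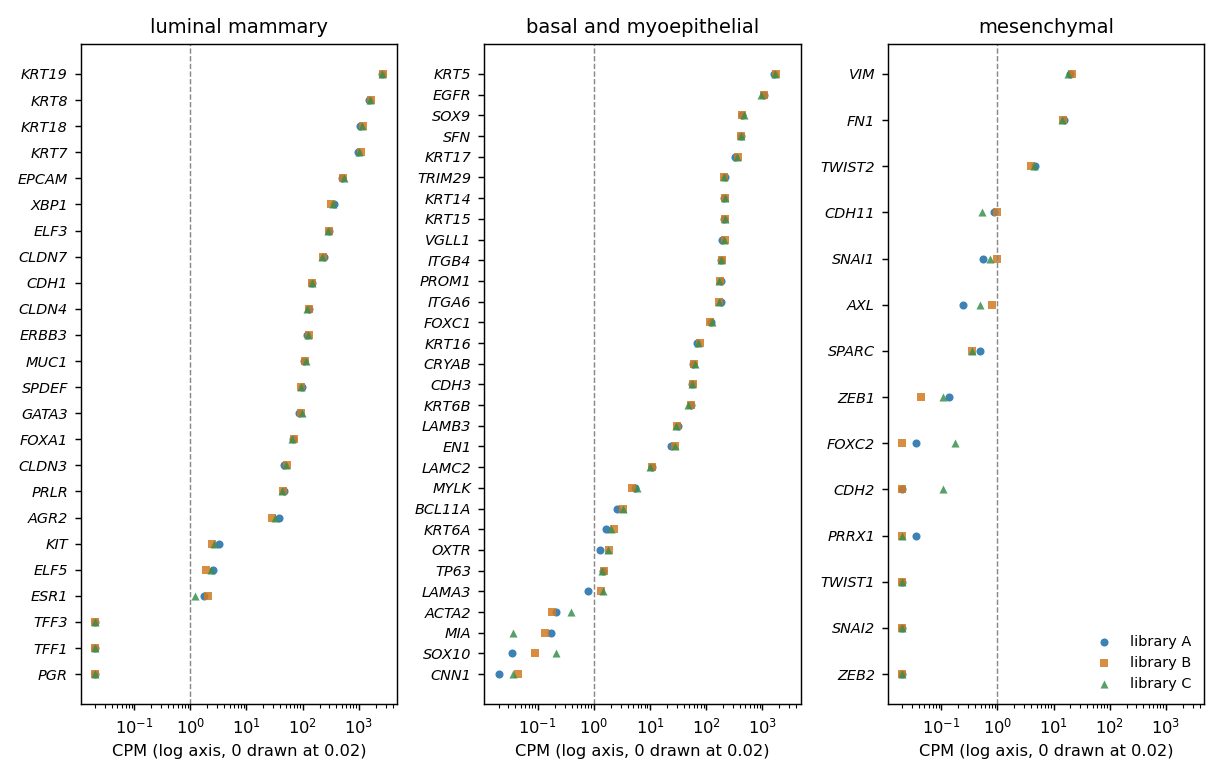
CPM of 24 of 25 luminal, 30 basal and 14 mesenchymal markers (log axis, genes sorted by level), with 1 symbol for each DMSO library and a dashed line at 1 CPM. The luminal and basal panels both reach over 1000 CPM, while 11 of 14 mesenchymal genes were not expressed. The 3 libraries sit on top of each other above about 10 CPM and part below 1 CPM.

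Most mesenchymal genes were low or silent. Of 14 genes 3 (21.4%) were expressed, against 53.4% of all genes and 62.3% of protein-coding genes, and 8 were low. The 3 silent ones were the transcription factors ZEB2, SNAI2 and TWIST1, a share of 21.4% that was near the 22.7% of all genes. At a limit of 0.5 CPM 5 of the 14 would count as expressed, and at 5 CPM 2. VIM, the intermediate filament of mesenchymal cells, was at 19.4, 21.3 and 18.4 CPM, and FN1, fibronectin, at 15.5, 14.6 and 14 CPM. TWIST2 was the remaining expressed member, at 4.34 ± 0.331 CPM. CDH2 was low with 0.0355 CPM, and CDH1, the epithelial cadherin, was at 146 ± 0.851 CPM. Of 32 junction genes 25 (78.1%) were expressed, against 62.3% of protein-coding genes. Among them were DSP, the desmosome plakin, at 850 ± 12 CPM, F11R at 368 ± 11.4 CPM and JUP at 295 ± 3.12 CPM. GJA1, the main gap junction gene of many tissues, had no read.

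Of 16 milk and secretory genes 5 (31.2%) were expressed, against 62.3% of protein-coding genes. The 4 silent ones were the caseins CSN1S1, CSN2 and CSN3 and the lactose cofactor LALBA. SLPI, a secreted protease inhibitor, was at 324, 348 and 345 CPM, and LCN2, which binds bacterial iron carriers, at 114, 126 and 117 CPM. SCGB2A2, mammaglobin, was at 10.6 ± 1.28 CPM. Library A was the lowest of the 3 for each of these.

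Many defining markers of other cell types were at or near 0, but each list also had expressed members. PTPRC, CD3E, CD3D and NKG7 of leukocytes, COL1A2, LUM, DCN and THY1 of fibroblasts, PECAM1, CDH5 and ERG of endothelium and ALB of liver were all low or silent. The 12 leukocyte genes had 2 expressed members and a length-scaled sum of 101 to 108 per library. Almost all of it was CD14, a receptor for bacterial lipopolysaccharide, at 76.8 ± 3.06 CPM and a length-scaled level of 100.1 ± 3.51. The 10 fibroblast genes had 2 expressed members, COL1A1 at 10.4 ± 0.909 and PDGFRA at 3.87 ± 0.453 CPM, and a sum of 5.95 to 6.31. The 10 endothelial genes also had 2, KDR at 19.3 ± 0.267 and ESAM at 4.46 ± 0.652 CPM, and a sum of 13.7 to 15.1. The 7 adipocyte genes had 1 expressed member (PPARG at 9.29 ± 0.732 CPM) and a sum of 9.59 to 11.2. The 10 hepatocyte genes had 1 (TF at 19 ± 0.768 CPM) and a sum of 3.03 to 3.16. Among 11 genes of neurons and neural crest 5 (45.5%) were expressed, against 53.4% of all genes and 62.3% of protein-coding genes. MBP was the highest on CPM at 41.8 ± 0.908, and SNAP25 and TYR were silent.

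S100 genes encode small calcium-binding proteins, and most lie in a cluster on chromosome 1. They were expressed in 15 of 20 cases (75%), against 62.3% of protein-coding genes, with a median length-scaled level of 186. S100A6 was at 3997 ± 228, S100A4 at 2694 ± 73.7 and S100A11 at 2351 ± 156 on that level. Over 17971 windows of 7 neighbouring genes in RefSeq order, the median length-scaled level per window had a median of 7.32. The window from S100A6 to S100A14 had the highest value, 634, and the window from KRT15 to EIF1 on chromosome 17 had 315.

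Nuclear receptors are transcription factors switched by hormones and lipids. Of 48 genes 27 (56.2%) were expressed, 12 low and 9 (18.8%) silent. These shares lay between the 53.4% expressed and 22.7% silent over all genes and the 62.3% and 16.5% over protein-coding genes. On the length-scaled level NR2F6 was the highest at 129 ± 1.03, followed by RXRA, a common partner of other receptors, at 83 ± 1.1. VDR, the vitamin D receptor, was at 107, 115 and 118 CPM. NR3C1, the glucocorticoid receptor, was at 85.1, 82.8 and 78.5 CPM. Length-scaled levels were 54 ± 2.19 for VDR and 25.4 ± 1.22 for NR3C1, against 0.586 ± 0.147 for ESR1 and no read for PGR.

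Receptor tyrosine kinases sit at the head of growth signalling, bind ligands outside the cell and pass the signal to RAS-MAPK and PI3K-AKT. Of 58 genes 35 (60.3%) were expressed, near the 62.3% of protein-coding genes, 16 were low and 7 silent. Their length-scaled sum was 1067. EGFR was at 1079 CPM in A, 1058 in B and 963 in C, and it was lowest in C. DDR1, a collagen receptor, was at 554, 539 and 552 CPM. Per length DDR1 took 27% ± 0.665 of the summed level and EGFR 21.9% ± 0.921, and the 3 libraries did not overlap. DDR1 stayed above EGFR with either of the other lengths tried, at 282 against 250.3 over all basic transcripts and 331 against 247 for the longest transcript. ERBB3, a partner of EGFR with little kinase activity of its own, took 4.47% ± 0.203.

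The other ERBB receptors ranked lower. ERBB2 was at 41, 42 and 38.4 CPM and ERBB4 at 1.55 ± 0.2 CPM. Among other receptors MET was at 112 ± 2.43 CPM, INSR at 52.1 ± 3.33 and IGF1R at 36.1 ± 0.275 CPM. AXL, at 0.511 CPM, and RET, at 0.884 CPM, were low, and EPHA3, EPHA5, EPHA7, FLT4, MUSK, NTRK3 and TIE1 were silent.

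Ligands of the ERBB receptors were scarce beside the receptors. Of 11 genes 5 (45.5%) were expressed, against 53.4% of all genes and 62.3% of protein-coding genes. Another 4 were low and 2 (NRG1 and NRG3) silent. The length-scaled sum of the 11 genes was 30.4. TGFA, an EGFR ligand, was at 46.8, 44.6 and 43.4 CPM and made up most of that sum with 23.2 ± 1.12. HBEGF was next in CPM at 2.61, 1.68 and 3.12, and AREG and EREG had under 0.1 CPM. At a limit of 5 CPM only TGFA of this list would count as expressed.

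The PI3K-AKT pathway turns a lipid signal at the membrane into growth and survival. Of 35 genes 32 were expressed and 3 were low, the low ones being PIK3R5, PIK3CG and INPP5D, genes best known from blood cells. AKT1, a kinase at the centre of the pathway, was at 177, 181 and 178 CPM and its relative AKT2 at 154, 148 and 147 CPM. Per length AKT1, at 131 ± 0.75, was above AKT2, at 62.9 ± 2.14, and no library changed this order. PIK3R3, a regulatory subunit, was the highest member by CPM at 258 ± 8.91 and had a length-scaled level of 107 ± 4.64. The catalytic subunit PIK3CA, at 18.9 ± 2.25 CPM, had a length-scaled level of 5.12 ± 0.616, below PIK3CB at 17.8 ± 2.47. INPP4B, another lipid phosphatase, was at 8.65 ± 0.315 CPM.

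All 32 genes of the RAS-MAPK list were expressed. NRAS was at 250 ± 8.5 CPM with a length-scaled level of 138 ± 6.12, and HRAS had a length-scaled level of 74.9 ± 1.97. BRAF, a kinase that RAS activates, was at 9.16 ± 0.3 CPM. DUSP4, a phosphatase induced by the pathway, was at 106 ± 2.58 CPM, and MYC at 67.2 ± 3.44 CPM.

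Polycomb complexes keep developmental genes off: PRC2, with EZH2 or EZH1 as its enzyme, methylates histone H3, and PRC1 ubiquitinates histone H2A. Of 32 genes 31 were expressed. EZH2 was at 126 CPM in A, 110 in B and 107 in C, with A the highest. EZH1 was at 9.74, 8.82 and 10.1 CPM, and EZH2 took 94.9% ± 0.506 of the length-scaled level of the pair. The core partners SUZ12 and EED were at 64 ± 4.64 and 50.9 ± 1.08 CPM, and the histone binders RBBP7 and RBBP4 were the highest on CPM at 374 ± 3.84 and 293 ± 16.1 CPM. BMI1, a PRC1 subunit, was the low member with 58 reads. The tables also list the joined symbol COMMD3-BMI1, so reads that overlap both may be left uncounted, and this was not tested. Of 10 genes of DNA methylation 9 were expressed, with DNMT1, the maintenance enzyme, at 784 ± 18.8 CPM and DNMT3B at 17.8 ± 0.531 CPM.

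HOX genes, classical Polycomb targets that set position along the body, differed between their clusters. HOXC had 8 of 9 genes expressed (88.9%), HOXA 6 of 11 (54.5%), HOXB 3 of 10 (30%) and HOXD none of 9. The share was 53.4% over all genes, close to that of HOXA, and 62.3% over protein-coding genes. At a limit of 5 CPM HOXC had 4 expressed genes, HOXA 5 and HOXB 3, and at 0.5 CPM they had 9, 7 and 5. The lead of HOXC over HOXA therefore depends on the limit, while HOXD had none at either. HOXA9, with 1 read, and HOXA10 are part of the joined symbol HOXA10-HOXA9. Reads that overlap both may be left uncounted, and this was not tested. HOXC10 was the highest at 66.2, 72.5 and 64 CPM, and HOXB7 followed with 29.5, 33.2 and 36.7 CPM. HOTAIR, a long noncoding RNA from the HOXC cluster, was at 37.3, 42.7 and 43.5 CPM. In HOXD, 6 genes (HOXD1, HOXD4, HOXD9, HOXD11, HOXD12 and HOXD13) had no read and HOXD3, HOXD8 and HOXD10 had 4 reads together.

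G1 control decides whether a cell enters DNA synthesis, with the RB1 protein as gate, cyclins with CDK4 and CDK6 as openers and CDKN2A as brake on the openers. Of 30 genes 29 were expressed and CCND2 was low with 1 read. CDKN2A was at 106, 120 and 116 CPM. RB1 was at 5.32, 5.86 and 5.25 CPM, the lowest of the expressed members, with a length-scaled level of 2.81 ± 0.155 at the 48.6th percentile of all genes. Its relatives RBL2 and RBL1 were at 107 ± 6.42 and 18.3 ± 1.5 CPM. CCND1 was at 74.3 ± 3.6 CPM.

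All 24 proliferation genes were expressed, with a median length-scaled level of 138. TOP2A, which untangles DNA, was at 722 ± 30.8 CPM, PCNA, the replication clamp, at 586 ± 28.5 CPM and MKI67 at 245 ± 17.4 CPM. All 24 homologous recombination genes were expressed too, with a lower median of 12.9. PARP1 was at 321 ± 8.14 CPM, BRCA1 at 53.2, 47.9 and 49 CPM and BRCA2 at 31.9, 27.3 and 25.8 CPM. Both BRCA genes were highest in A. In the BCL-2 family 17 of 19 genes were expressed, led by the survival gene MCL1 at 359 ± 8.17 CPM, with BCL2 at 11.4 ± 0.834 CPM and BCL2L10 silent.

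A stretch of genes around EGFR in chromosomal order was high. The order comes from RefSeq (GRCh38.p14), and the counts themselves carry no coordinates. The ends of the stretch were set after the values were seen, at the first and the last high gene, so its median and its edges are a description. From SEC61G to CHCHD2, 13 consecutive placed genes on chromosome 7 had a median length-scaled level of 454, and 10 of 13 were over the 90th percentile of all genes. Together they took 1.11% of the reads in genes in A, 1.11% in B and 1.1% in C. LANCL2 was at 1228 ± 21.4 CPM, CCT6A, a subunit of a protein-folding chamber, at 2690 ± 11.5 CPM and CHCHD2 at 1227 ± 28.2 CPM. Outside the chosen ends COBL and POM121L12 before SEC61G had no read and VSTM2A had 9 reads, and ZNF479 and ZNF716 after CHCHD2 were low. Further out, before COBL, FIGNL1, DDC and GRB10 were expressed, at 57.9, 3.61 and 27.2 CPM. Inside the stretch SEPT14, a testis septin, was low too. Copy number was not measured.

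Around RB1 on chromosome 13 high and low neighbours alternated. ITM2B, the gene before it, was at 209 ± 7.42 CPM, while LPAR6, which lies next in order, had 1 read and RCBTB2 was at 0.889 ± 0.29 CPM. Around SMAD4 on chromosome 18, SMAD4 was at 0.8, 0.75 and 0.781 CPM and its neighbour ELAC1 at 0.996 ± 0.158 CPM, between ME2 at 71.7 ± 2.18 and MEX3C at 63.9 ± 4.31 CPM. RB1 passed the limit of 1 CPM in every library and SMAD4 in none.

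**Figure D4:**
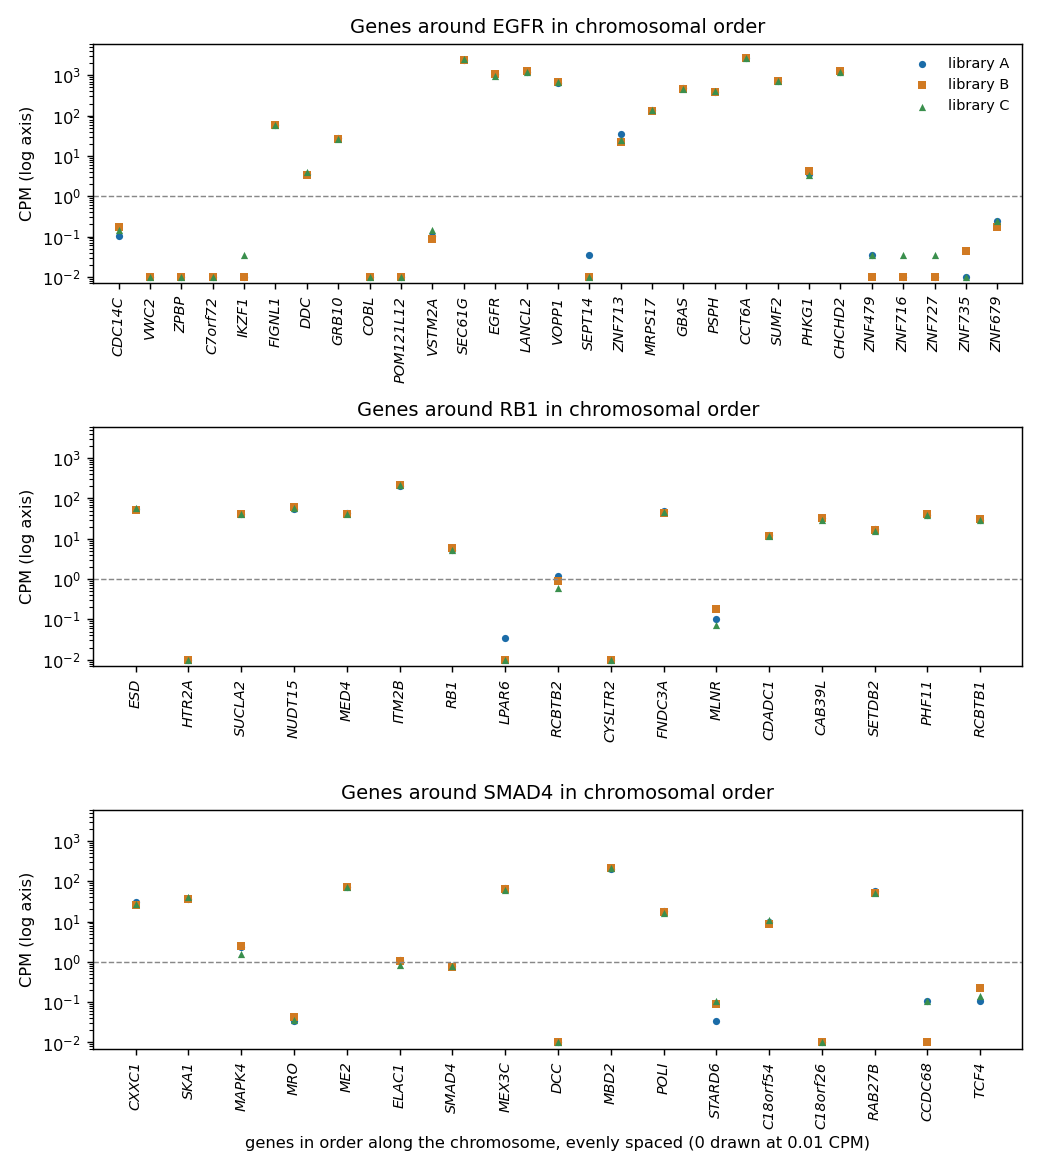
CPM (log axis) of genes around EGFR, RB1 and SMAD4, evenly spaced in chromosomal order, with 1 symbol for each DMSO library and a dashed line at 1 CPM. From SEC61G to CHCHD2, 10 of 13 genes lie above 100 CPM. The nearest genes on either side lie under 1 CPM, while FIGNL1, DDC and GRB10 further out lie above it. SMAD4 and ELAC1 lie near 1 CPM between neighbours above 60 CPM.

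SMAD4 is the shared partner of the SMADs that carry TGF-beta and BMP signals. In that list 23 of 28 genes (82.1%) were expressed, against 62.3% of protein-coding genes. The other 5 were low, SMAD4 with 62 reads among them. The receptor genes TGFBR1 and TGFBR2 were at 60.8 ± 1.73 and 67.6 ± 1.46 CPM and the ligand TGFB2 at 117 ± 4.71 CPM. SMAD2 and SMAD3, which SMAD4 joins, were at 105 ± 1.14 and 33.4 ± 1.96 CPM.

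Among other developmental pathways Notch had 13 of 18 genes expressed (72.2%), Wnt 27 of 44 (61.4%) and Hedgehog 4 of 11 (36.4%). The share over protein-coding genes was 62.3%, close to that of Wnt. NOTCH3 was the highest Notch receptor at 471, 462 and 473 CPM, and NOTCH4 was low at 0.632 ± 0.223 CPM. HES1, a Notch target, was at 118, 133 and 144 CPM. CTNNB1, the beta-catenin gene of the Wnt pathway, was at 493 ± 29.8 CPM and the secreted inhibitor SFRP1 at 402 ± 16.5 CPM. LGR5, WNT1, WNT7A, WNT9B and FZD10 were silent. No Hedgehog ligand was expressed: SHH and DHH had no read and IHH had 0.0147 CPM.

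Every one of the 30 genes of cholesterol and fatty acid synthesis was expressed, and their median length-scaled level of 208 compares with 23.1 over all expressed genes. SCD was at 3367, 3252 and 3367 CPM. HMGCS1, an early enzyme of the cholesterol branch, was at 941, 869 and 883 CPM, and FASN, the fatty acid synthase, at 823, 807 and 790 CPM. SREBF2, the transcription factor of the cholesterol branch, was at 219 ± 7.06 CPM.

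In glycolysis 24 of 30 genes (80%) were expressed, against 62.3% of protein-coding genes, 5 were low and 1 was silent. ENO1 was at 1640 ± 44.5 CPM and LDHA at 1393 ± 33.8 CPM. LDHA made up 86.9% ± 0.181 of the length-scaled level of LDHA and LDHB. CA9, a gene induced by low oxygen, was at 6.86 ± 0.605 CPM.

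Antigen presentation by MHC class I, which shows peptides to CD8 T cells, was expressed nearly in full, with 17 of 18 genes. B2M, the light chain, was at 665, 706 and 692 CPM, and CALR, a chaperone of peptide loading, at 1503, 1567 and 1667 CPM. NLRC5, the activator of this gene set, was at 10.1 ± 0.912 CPM. The list for MHC class II had 2 of 14 genes expressed (14.3%), against 62.3% of protein-coding genes. They were CTSS at 4.31 ± 0.308 and HLA-DMA at 2.74 ± 0.253 CPM, and neither would count as expressed at a limit of 5 CPM. CD74 had 7 reads, CIITA 4 and HLA-DRA 1. HLA genes vary between genomes and resemble each other, so their counts are uncertain.

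Of 24 genes of innate sensing and interferon response 21 (87.5%) were expressed, against 62.3% of protein-coding genes. TMEM173 (STING), an adaptor of DNA sensing, was at 28.9 ± 1.1 CPM. MB21D1, the DNA sensor cGAS, was low with 55 reads, and IFNB1 had 1 read. Of 29 cytokines and chemokines 9 (31%) were expressed, led by TNFSF10 at 83.6 ± 5.16 and CX3CL1 at 76.1 ± 2.68 CPM. IL6 had 5 reads in all, and IL1B, CSF2, CSF3, IL33 and CXCL12 had none.

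Surface antigens that drugs or sorting antibodies bind were expressed in 21 of 26 cases (80.8%), against 62.3% of protein-coding genes. CD24 and CD44 were both high, with length-scaled levels of 2097 ± 82.3 and 688 ± 16. EPCAM was at 501, 528 and 545 CPM and VTCN1 (B7-H4) at 256, 239 and 238 CPM. CD274 (PD-L1) was low at 0.209, 0.353 and 0.213 CPM, and CD276 (B7-H3) was at 33.5 ± 0.948 CPM. Of 10 drug transporters 7 (70%) were expressed, near the 62.3% of protein-coding genes. ABCC1 was at 32 ± 0.627 CPM and ABCB1 was low with 9 reads.

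Cancer-testis antigens are genes of the germ line that some tumours express. Of 20 genes 9 (45%) were expressed, against 53.4% of all genes and 62.3% of protein-coding genes. Another 7 were low and 4 silent (CTAG1B, CTAG2, GAGE2A and SSX2). Reads that mapped to more than 1 place were not counted in genes. No read in a gene with close copies therefore does not show that it was not transcribed. The share of reads lost this way was not tested. MAGEA6 was at 179, 174 and 187 CPM, MAGEA3 at 175, 164 and 177 CPM and MAGEA12 at 136, 133 and 142 CPM. The 3 lie together on chromosome X and closely resemble each other, so the split between them is uncertain. The neighbour CSAG1 was at 108 ± 6.14 CPM, while CSAG2, CSAG3 and MAGEA2B close by had no read. CXorf61 was at 34.9 ± 0.872 CPM, with a length-scaled level of 156 ± 2.47.

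Long noncoding RNAs were led by MALAT1, a nuclear RNA, at 1979 CPM in A, 2420 in B and 2592 in C. Of 12 members at 5 CPM or more, 8.33% were higher in A than in the mean of B and C, against 59.8% of all 10680 genes at that level. Of 72 histone genes 22 (30.6%) were expressed, against 62.3% of protein-coding genes, led by HIST1H2BK at 86 ± 3.54 CPM. Most histone transcripts carry no poly(A) tail, so a poly(A) library undercounts them. Of 69 protocadherin genes 17 (24.6%) were expressed and 6 were silent.

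Joined symbols touch some of the genes described here. The tables hold 110 symbols made of 2 gene names that are also rows of their own. Of the 218 genes named in them 96 (44%) were expressed, 81 (37.2%) low and 41 (18.8%) silent, against 53.4%, 23.9% and 22.7% of all genes. EIF4A1, a helicase that starts translation, had no read, and SENP3-EIF4A1 had 1. CTNND1, a catenin that binds cadherins, was at 6.42 ± 1.23 CPM and is part of TMX2-CTNND1. A low or silent value for such a gene therefore does not show that it was not transcribed, and the share of reads lost this way was not tested.

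The state of a gene went along with the makeup of its promoter. Promoters (RefSeq, GRCh38.p14, 250 bases before to 50 after the most upstream start) matched 15515 genes. CpG is a C followed by a G, and a promoter is called CpG-rich here with at least 50% G and C and at least 0.6 of the CpG count that its base composition predicts. CpG-rich promoters made up 63.8% of all, 81.2% (95% Wilson interval 80.4 to 82) of those of expressed genes, 40.1% (38.4 to 41.9) for low genes and 26.3% (24.6 to 28) for silent genes. The letters TATAAA, searched on the gene's own strand and beginning 40 to 16 bases before the start, stood in 3.63% of all promoters. They stood in 1.71% (1.47 to 1.98) for expressed genes and 8.51% (7.49 to 9.65) for silent genes. Over 1000 CPM the share was 7.58%, from 5 of 66 promoters, with an interval of 3.28 to 16.5 that overlaps the one for silent genes.

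The lists did not all follow this. Of 15 matched promoters of expressed luminal genes 4 were CpG-rich, and of 12 for expressed basal genes 4, while 20 of 22 were for G1 control and 17 of 19 for proliferation. Conversely 4 of 5 matched promoters of silent HOXD genes were CpG-rich, and none of 5 for silent type I keratins, 4 of which held TATAAA. The 4 promoters printed here show the combinations, each as the 250 bases before the start with CG pairs and TATAAA in capitals. They were picked after the values were seen, as an expressed and a silent gene of each kind. EGFR is expressed and CpG-rich, S100A4 is expressed with few CpG and a TATAAA, HOXD1 is silent and CpG-rich, and CSN2 is silent with few CpG and a TATAAA.
EGFR: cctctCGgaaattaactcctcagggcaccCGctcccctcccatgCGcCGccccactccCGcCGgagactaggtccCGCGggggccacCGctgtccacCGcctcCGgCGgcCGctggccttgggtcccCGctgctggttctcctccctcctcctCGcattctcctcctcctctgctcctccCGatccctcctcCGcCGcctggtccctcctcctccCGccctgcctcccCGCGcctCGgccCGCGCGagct
S100A4: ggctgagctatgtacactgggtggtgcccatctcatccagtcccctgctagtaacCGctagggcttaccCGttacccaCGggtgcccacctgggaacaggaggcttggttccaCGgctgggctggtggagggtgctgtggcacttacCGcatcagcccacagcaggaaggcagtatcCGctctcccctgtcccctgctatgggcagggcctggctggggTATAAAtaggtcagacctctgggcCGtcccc
HOXD1: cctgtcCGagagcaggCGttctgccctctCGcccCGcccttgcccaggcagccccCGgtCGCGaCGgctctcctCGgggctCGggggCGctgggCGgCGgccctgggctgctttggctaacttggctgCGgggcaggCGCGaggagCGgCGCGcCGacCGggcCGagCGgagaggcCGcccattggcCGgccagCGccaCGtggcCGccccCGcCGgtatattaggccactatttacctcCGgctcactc
CSN2: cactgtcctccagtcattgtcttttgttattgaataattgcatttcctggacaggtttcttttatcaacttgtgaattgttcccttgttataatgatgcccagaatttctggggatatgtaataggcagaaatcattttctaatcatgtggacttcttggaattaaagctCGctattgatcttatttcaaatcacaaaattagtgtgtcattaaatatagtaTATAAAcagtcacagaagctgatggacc
They lie at chr7:55018767-55019016 (plus strand), chr1:153545807-153546056 (minus strand), chr2:176188418-176188667 (plus strand) and chr4:69965729-69965978 (minus strand) of GRCh38.p14. The 250 bases hold 25 CpG for EGFR and 31 for HOXD1, against 7 for S100A4 and 1 for CSN2. The CSN2 letters begin 28 bases and the S100A4 letters 31 bases before the start. EGFR and HOXD1, so alike in this count, differ from 1033 CPM to no read. A match describes the letters only.

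The 3 libraries were close to each other. Of 10680 genes at 5 CPM or more on average, 20 differed by over 1.5 times between the highest and the lowest library and none by over 2 times. The widest was SLC4A4, a bicarbonate transporter, with 6.4 CPM in A, 3.66 in B and 5.18 in C. ZNF713, which lies in the stretch beside EGFR, was also among the 10 widest with 35.8, 22.5 and 24.4 CPM. PALM3, at 7.97, 8.9 and 12.5 CPM, was highest in C, but 15 of the 20 genes over 1.5 times were highest in A. The steadiest genes above 100 CPM included MRPL51 at 166, 166 and 166 CPM (CV 0.0835%), BUB3 (0.109%) and ACTG1 at 3635, 3641 and 3650 CPM (0.201%).

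Spread fell with level until it flattened. The median CV was 12.1% for genes of 1 to 5 CPM, 6.32% from 5 to 20 CPM, 4.06% from 20 to 100 CPM, 3.15% from 100 to 500 CPM and 2.93% above that. Counting alone would give 12.7%, 5.75%, 2.95%, 1.52% and 0.711%. From 1 to 5 CPM the median measured CV was close to the counting value. Above 100 CPM it was over 2 times the counting value. A CV from only 3 libraries tends to fall below the true CV, which the counting values describe. The 2 are therefore not fully alike, and whether spread below 5 CPM went beyond counting was not tested. The common biological coefficient of variation, the spread beyond counting in edgeR's model, was 3.95%. Without library A it was 2.71%, without B 4.54% and without C 4.25%.

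**Figure D5:**
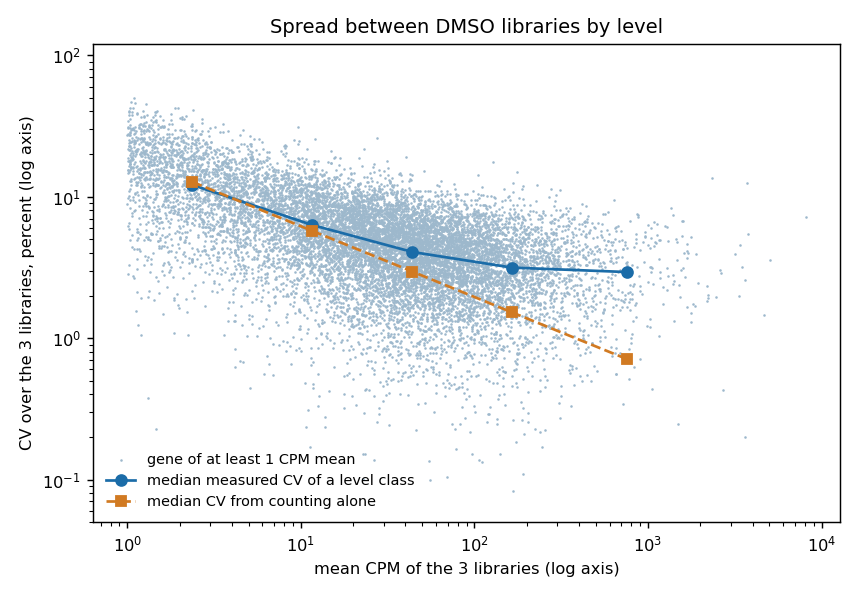
CV over the 3 DMSO libraries (vertical, log axis) against mean CPM (horizontal, log axis) for each gene of at least 1 CPM, with the median of each level class (circles) and the median expected from counting alone (squares). The lines lie close together below 5 CPM and part above it, reaching 2.93% against 0.711% above 500 CPM.

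The difference of library A moved with gene length. With these genes split into 4 equal classes by exon length, 40.5% of the shortest (87 to 2261 bases) were higher in A than in the mean of B and C. In the next classes the share was 58.2%, 68.7% and 72.8%. The sizes were small, with medians of -0.02, 0.02, 0.04 and 0.06 on the log2 scale. Over all 10680 genes 59.8% were higher in A. Cytosolic ribosomal protein genes were higher in A in 26.9% of 78 cases, S100 genes in 28.6% of 14 and type I keratins in 10% of 10. Proliferation genes were higher in A in 83.3% of 24 cases and RAS-MAPK genes in 82.8% of 29. What set A apart was not tested.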

How the data were processed

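Poly(A) RNA was measured in 12 libraries, of which the 3 with DMSO were analysed. Per the labels' protocols, a Qiagen column kit (RNeasy Plus) gave the RNA and Kapa Hyper Prep the libraries. The counts used here are whole reads per gene symbol, 1 table for each library, as deposited by the authors. STAR, SAMtools, HTSeq and DESeq2 are named with the build hg19 in the submitters' processing notes. Versions, the annotation and the strand setting are not given in the sources used, so overlapping and antisense genes are uncertain.

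The 5 closing lines of each table that name no gene were left out; they held 33.7% ± 1.66 of the counted reads. CPM was computed over the remaining 23228 genes. Exon lengths were the union of RefSeq-paired transcripts of GENCODE 29 (21074 genes) or else of its basic transcripts. They covered 21437 genes and 99.2% of the reads in genes, and the other 1791 genes have no length-scaled level. Gene order and promoters came from RefSeq GRCh38.p14, and no coordinates of that build were set on the counts. The spread between libraries was estimated with edgeR 4.0.16 (R 4.3.3) without a group term, and the procedure was tested on simulated data. Tables were made with Python 3.11.15 and pandas 2.3.3. Intervals are 95% Wilson intervals over promoters. No comparison between groups and no test was made.

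The members and the 53 lists were chosen with earlier results of these data known. Named genes were the 20 highest on each scale, the 6 highest and up to 8 silent members of each list, a panel of 9 genes around AKT, EZH2 and EGFR, and the 10 widest and 10 steadiest genes. Some of these are not reported here. Other genes named are known markers picked after their values were seen. Alternatives were other scaling factors, limits, lengths and denominators and each library left out.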

Additional observations from a re-analysis of the deposited data

How the results depend on the processing

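The number of expressed genes kept within 1.5 times of 12405 under every setting tried, from 10579 at 5 CPM to 13087 at 0.5 CPM, and was 12464, 12462 and 12484 with library A, B or C left out. With 1 library left out the number of silent genes was 5634 to 5719. The share of reads in the top 100 genes was 16.8% to 17.1% with 1 library left out, and on the length-scaled level it was 25.6%. The median trended biological coefficient of variation of 4.09% became 6.15% with DESeq2's fitted dispersions, and 2.89% to 4.61% with 1 library left out. At 5 CPM, 83.4% of expressed genes had a CpG-rich promoter, against 81.2% at 1 CPM. For genes with a mean of over 1 to 5 CPM, which the limit of 5 CPM leaves out, the share was 64.5%. The 2 shares of the top 100 genes are different measures, of reads and of reads per length. The cause of the shift in the biological coefficient of variation was not tested. Of 53 lists, the count of expressed members moved by over 1.5 times in 11 at 5 CPM, 5 at 0.5 CPM, 6 at a length-scaled level of 1, 2 with all counted lines in the denominator and 1 with a mean of 1 CPM, and in none with another scaling or a library left out. Histones went from 22 to 44 at a length-scaled level of 1. The length alternatives were added after seeing the data; with exons of all basic transcripts as length the level of SEC61G went from 13053 to 7894 and that of KRT5 from 1617 to 1807. No paired analysis was possible because only 1 group was used. Depth limits statements on genes under 1 CPM, where the 3 libraries part.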

Other observations

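Matrix genes were mostly low or silent. Of 43 collagen genes 13 (30.2%) were expressed, against 62.3% of protein-coding genes, 19 were low and 11 were silent. COL18A1, a basement membrane collagen, led them on CPM at 55.7, 58.1 and 58 CPM in A, B and C, and COL4A5 followed at 25.7 CPM. COL1A1 was at 10.4 ± 0.909 CPM while COL1A2, which forms the same fibre, had no read. Beyond the stretch beside EGFR and the S100 and keratin clusters, the windows of 7 neighbouring genes with the highest median length-scaled level ran from KIAA1949 to DDR1 on chromosome 6, at 284, and from DDX39A to NDUFB7 on chromosome 19, at 276. The window from KIAA1949 to DDR1 holds TUBB, FLOT1 and IER3. These were picked after their values were seen, and no test was made of them.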
